A study of Arabidopsis thaliana with 7 samples.

Results

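Late stages of pollen development in Arabidopsis thaliana were compared with early stages on ATH1 arrays, oligonucleotide chips that read most annotated genes of the plant with 1 probe set each. The late side held 3 arrays, 2 of them of immature tricellular pollen, TCP, and 1 of mature grains, MPG. The early side held 4 arrays, 2 of uninucleate microspores (UNM) and 2 of bicellular pollen (BCP). Arrays were placed by their stage labels and not by any signal, and all 7 of the 7 arrays entered the comparison. Among 22746 probe sets, 2967 had all 3 late signals above all 4 early signals and 6066 had all 4 early signals above all 3 late ones, and these probe sets are described here.

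All 4 stages came from wild-type Ler-0 plants (stock NW20) with no genetic modification and no treatment, grown on compost under long days. Per the methods, UNM, BCP and TCP spores were separated on a density gradient from ground inflorescences of many plants and MPG grains were taken from open flowers, and replicates 1 and 2 came from independently grown plants. The same methods state that the BCP isolate also held microspores, tetrads and tricellular grains and that the TCP isolate held some bicellular pollen, so the sides are enriched populations and not pure ones. MPG was represented by 1 array and has no replicate check of its own.

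The male gametophyte starts as a haploid microspore, which divides unequally into a large vegetative cell and a small generative cell enclosed by it. The generative cell divides again to give the sperm cells, and the vegetative cell stores RNA, proteins and sugars for the pollen tube it forms on the stigma. Tube growth takes place at the tip and is known to use actin filaments, secretion of wall polymers, ion gradients and signalling through small GTPases, receptor kinases and calcium.

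Signals are given on the linear scale after each array was brought to the same trimmed mean of 100, and differences are late minus early on the log2 scale, with signals under 20 raised to 20. A fold written as "at least" has 1 or more arrays of its lower side under that floor. On the late arrays 9028 to 9757 probe sets reached a signal of 40, against 10581 to 11446 on the early arrays. Over the tested probe sets, log2 signals correlated at 0.902 to 0.972 among late arrays, at 0.909 to 0.964 among early arrays and at 0.332 to 0.58 between the sides, as a description across probe sets that share arrays. The log2 ratio of 3' to 5' signal of the GAPDH control was -0.22 to 0.64 on late arrays and 0.29 to 0.81 on early arrays. For a ubiquitin control the ratio was 0.34 to 1.78 on late arrays and 1.15 to 2.05 on early arrays. For an actin control the ratio was 0.99 to 2.41 on late and 1.09 to 2.82 on early arrays. Both were lowest on MPG replicate 1, and replicate 2 exceeded replicate 1 at UNM, BCP and TCP. The 3' probe set of another actin control gave 32.4 to 46.7 on late arrays and 420 to 643 on early arrays. Its 5' partner gave 154 to 214 on late and 136 to 186 on early arrays. The part of RNA quality in the differences below was not tested.

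Stage markers were read for late pollen and sperm cells, and none for microspores or bicellular pollen. These lists were chosen with earlier results known, so the order of the markers is no independent check of the labels. Of the listed markers of late pollen 6 were measured, all of them higher in late stages, with summed signals of 15018 and 18265 at TCP and 25889 at MPG, against 2173 and 2280 at UNM and 3693 and 5334 at BCP. AT5G45880 made up most of the early sums, at 2000 and 2130 at UNM and 3210 and 4950 at BCP. Median signals of the 6 were 962 and 972 at TCP and 2420 at MPG, against 23.1 and 27.1 at UNM and 103 and 85.2 at BCP. MGH3 (AT1G19890), a histone H3 variant of sperm cells, gave 2370 and 2430 at TCP and 2900 at MPG, against 137 and 104 at UNM and 356 and 222 at BCP. Markers of other anther cells were low on both sides. In the tapetum list, which marks the anther's nurse tissue, the 4 measured genes summed to 31.4 to 57 on late arrays and 36.5 to 113 on early arrays. Among 3 meiocyte genes the sums were 40.9 to 65.1 on late arrays and 99 to 116 on early arrays. Of these 7 genes SDS (AT1G14750), a cyclin of meiosis, and AT1G75920, of the tapetum list, reached the minimum for the test, and both were lower. SDS gave 27.3 and 22.4 at TCP and 43.5 at MPG, against 45.7 and 72 at UNM and 45.2 and 56.9 at BCP (-0.85 ± 0.29, adjusted p = 0.025), and AT1G75920 gave 18.8, 3.73 and 1.41 in late stages against 33.9, 43.3, 26.7 and 24 (-0.64 ± 0.25, adjusted p = 0.047). SDS lost its call under both other scalings and without TCP replicate 1 or 2, UNM replicate 2 or BCP replicate 2. AT1G75920 lost its call with equal medians, with the replicate number as a block (-0.63) and without TCP replicate 1 or 2, MPG replicate 1 or UNM replicate 1. The part of other anther cells in the differences below was not tested. None of the listed green tissue markers was measured by name, so a share of such cells was not tested.

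Of the 14364 probe sets that reached a signal of 40 on any array, 8696 differed between late and early stages by limma at an adjusted p under 0.05, a share of 60.5%. Transcripts were higher in late stages for 2825 probe sets (19.7%) and lower for 5871 (40.9%). In relation to all 22746 probe sets, those separated without overlap made up 13.0% on the late side and 26.7% on the early side. The median fold was 3.27 among the probe sets higher in late stages and 2.98 among those lower. More than 10-fold differences were found for 657 probe sets higher in late stages and for 299 lower ones. Folds that rest on the floor are lower bounds, so both of these counts depend on it. These signals are relative to the other transcripts on the same array, and less of an RNA per cell and fewer cells that hold it cannot be told apart.

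The balance of the directions depended on how arrays were scaled. With each array at the same trimmed mean, 32.5% of the called probe sets were higher in late stages and the median difference of all tested probe sets was -0.39. After quantile normalization 4032 were higher and 4761 lower, a share of 45.9% higher, with a median of -0.02. When arrays were set to equal medians over the tested probe sets, 4485 were higher and 4254 lower, a share of 51.3%, with a median of 0.07. Shifts of gene groups below are therefore read against the median of -0.39, and counts of called members against the shares of 19.7% higher and 40.9% lower. Groups whose direction turned with the scaling are marked.

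**Figure D1:**
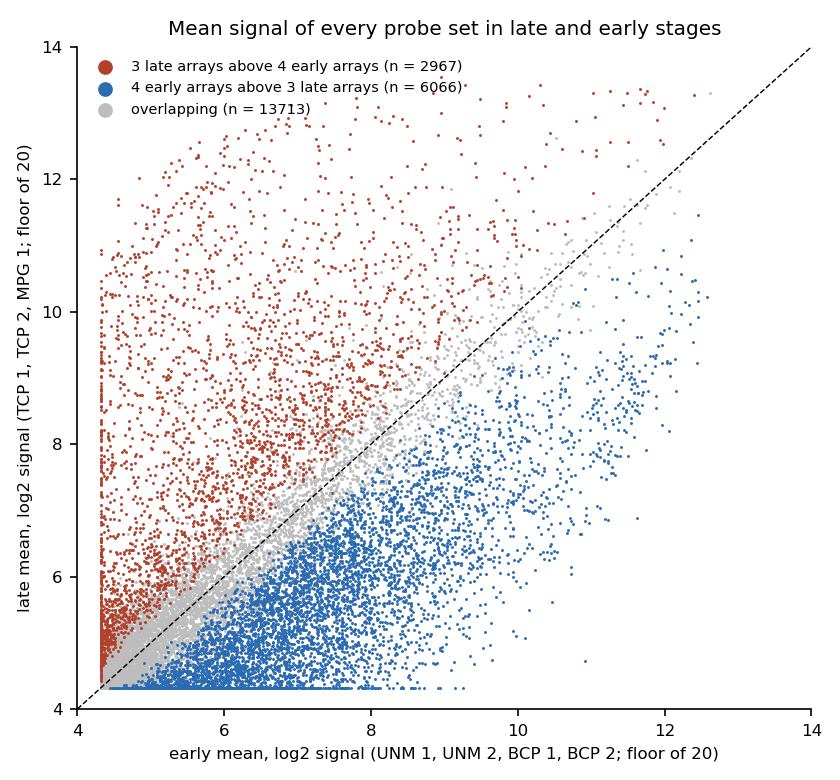
Mean log2 signal of each of 22746 probe sets over the 3 late arrays (vertical axis) and the 4 early arrays (horizontal axis), with signals under 20 raised to 20 and the dashed line marking equal means. The 2967 probe sets with every late array above every early array lie above the line, the 6066 with the opposite order lie below it, and the other 13713 overlap between the sides.

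The separated probe sets held most of the signal of their own side. They were picked by the order of these same signals, so the side each set favours was fixed by that choice. The size of the shares is given as a description. Probe sets with late signals above all early ones took 58.7% and 60.3% of the summed signal at TCP and 73.1% at MPG, against 10.8% and 10.3% at UNM and 15.3% and 15% at BCP. Those with early signals above all late ones took 14.2% and 13.1% at TCP and 10.7% at MPG, against 64.9% and 65.1% at UNM and 57.6% and 57.2% at BCP. The wider gaps lay on the late side. A gap of at least 8-fold between the nearest arrays of the sides was found for 462 probe sets higher in late stages and 135 higher in early stages, and of at least 16-fold for 258 and 10. In 276 late-side probe sets every early array was under the floor, and in 845 early-side probe sets every late array was. Gaps of such probe sets are lower bounds, and more of these lay on the early side. The part of the floor and of the scaling in the counts of wide gaps was not tested.

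**Figure D2:**
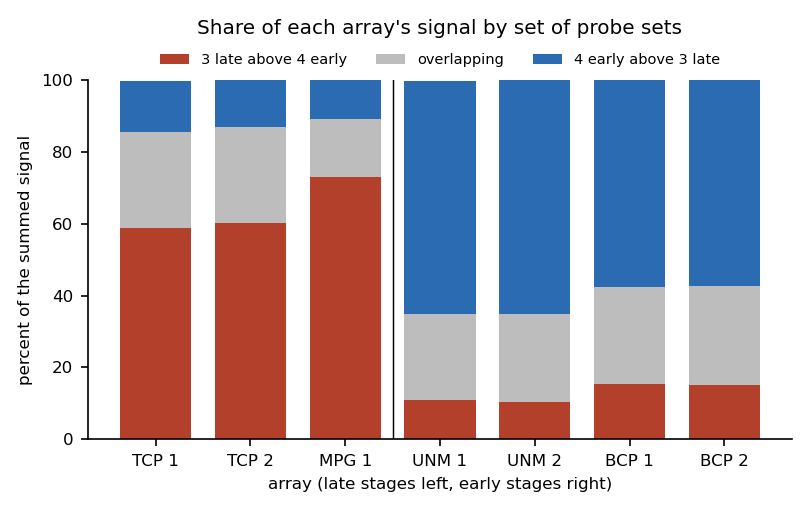
Percent of the summed signal of each array (bars, late arrays left of early ones) held by probe sets with late above early, overlapping and early above late signals. The late-side set held 58.7% to 73.1% of the signal of the late arrays and 10.3% to 15.3% of that of the early arrays. The sets were picked by these same signals, so the direction of the shares was fixed.

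Genes of the cell wall were among those higher in late stages. AT59 (AT1G14420), a pectate lyase-like protein of pollen, gave 3380 and 3280 at TCP and 6660 at MPG, against 20.5 and 3.12 at UNM and 82.1 and 49.7 at BCP, a difference of 6.86 ± 0.5 (SE, at least 117-fold, adjusted p = 2.9e-06). The nearest late and early arrays of AT59 were 39.9-fold apart. GH9A4 (AT3G43860), an endoglucanase of the family that cuts cellulose-like glucans, gave 2640, 2450 and 5160 in late stages and 28, 39.8, 61.5 and 70.6 in early stages, and its relative GH9B11 (AT2G44560) gave 479, 661 and 3380 against 10.8, 15.8, 7.04 and 20.3. In both genes MPG was the highest array, and the late and early ranges lay more than 20-fold apart. Of 12 tested GH9 genes 6 were higher, 3 were lower and 3 did not pass the test, with a median of 0.47, beside 19.7% higher and 40.9% lower over all tested probe sets. The GH9 list was added after values had been seen, so its counts are descriptions.

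Expansins, proteins that loosen the wall, followed in part. EXPB5 (AT3G60570) gave 2510 and 2680 at TCP and 7860 at MPG, against 40 and 42.6 at UNM and 84.2 and 101 at BCP (5.92 ± 0.47, adjusted p = 4e-06). EXPA4 (AT2G39700) read 235 and 169 at TCP and 2640 at MPG, with every early array under the floor, and EXPA24 (AT5G39310) read 373, 440 and 197 with every early array under the floor. Among 10 tested expansins 4 were higher, none was lower and 6 did not pass, with a median of 0.64. After quantile normalization 7 were higher, and 1 was called lower when TCP replicate 1 was left out.

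Enzymes that build wall glucans were higher for 3 of 5 tested genes. CSLC12 (AT4G07960), a synthase of the xyloglucan backbone, gave 1170 and 1450 at TCP and 2400 at MPG, against 30.6 and 33.1 at UNM and 84.8 and 94.2 at BCP (4.90 ± 0.45, 30-fold, adjusted p = 8.3e-06). Its signals in BCP were above those in UNM and far below those in TCP. CSLC6 (AT3G07330) was higher by 1.75 ± 0.24 and CSLD2 (AT5G16910), a member of a subfamily of tip-growing cells, by 1.05 ± 0.23. CSLC5 (AT4G31590) gave 43.4, 61.1 and 36 in late stages and 36.6, 54.1, 43.7 and 84.2 in early stages and did not pass the test (adjusted p = 0.64). None of the 5 tested synthases of cellulose, callose and other glucans was lower and 2 did not pass, with a median of 1.05.

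Genes of the actin cytoskeleton were higher for 7 of 12 tested members. PLIM2a (AT2G45800), a pollen LIM protein that bundles actin filaments, gave 7040 and 8760 at TCP and 11700 at MPG, against 39.4 and 61.2 at UNM and 293 and 294 at BCP (6.22 ± 0.67, 74.6-fold, adjusted p = 2.5e-05). ACT11 (AT3G12110), an actin of reproductive tissue, gave 3630, 3650 and 4040 against 569, 281, 699 and 563. PLIM2b (AT1G01780) gave 3130, 2680 and 5170 against 151, 126, 356 and 314. The late and early ranges of all 3 genes were separated by at least 5-fold. Of the other tested genes of this list 1 was lower and 4 did not pass, and the median was 2.02. A second gene was called lower when UNM replicate 2 was left out.

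Tubulins, the subunits of microtubules, were higher in 4 of 7 tested cases, with 1 lower and a median of 1.49. TUA1 (AT1G64740), the alpha-tubulin of pollen, gave 1910 and 1790 at TCP and 4650 at MPG, against 52.5 and 65.6 at UNM and 87.8 and 66 at BCP (5.23 ± 0.35, 37.6-fold, adjusted p = 2.2e-06). Beta-tubulins were also among them, TUB9 (AT4G20890) at 3.72 ± 0.28 and TUB1 (AT1G75780) at 2.45 ± 0.31. TUA6 (AT4G14960) gave 1790, 1770 and 3810 in late stages against 808, 765, 938 and 771, a smaller difference of 1.49 ± 0.29.

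Receptors and peptides of the pollen tube included genes with hardly any early signal. ANX1 (AT3G04690) and ANX2 (AT5G28680) encode a pair of receptor-like kinases that keep the tube intact while it grows. ANX1 gave 844 and 940 at TCP and 1750 at MPG, against 2.01 and 1.11 at UNM and 20.9 and 0.705 at BCP. ANX2 gave 1080, 1000 and 3080 against 11.9, 11.1, 24.4 and 18.6. Every late array of either gene was at least 40-fold above the floored early arrays (adjusted p = 1.1e-06 and 1.7e-06). RALFL25 (AT3G25165) and RALFL26 (AT3G25170) encode small secreted peptides of the RALF family, ligands of this class of receptors. RALFL26 gave 4370, 4880 and 8560 in late stages, against 32.4 and 44.9 at UNM and 137 and 84.3 at BCP, and RALFL25 gave 3850, 4560 and 6060 against 26.7, 45.3, 146 and 115. Of 9 tested receptors and peptides 4 were higher, 2 were lower and 3 did not pass, with a median of 0.01, beside shares of 19.7% higher and 40.9% lower over all tested probe sets. Those 4 are the genes just named. The lower pair was RALFL24 (AT3G23805), at -1.18 ± 0.21, and RALFL31 (AT4G13950), at -0.86 ± 0.31, whose arrays overlapped after the floor. RALFL31 lost its call with equal medians and without any single array other than UNM replicate 1.

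Transporters, calcium sensors and GTPase regulators held genes of either order, and of the ROP GTPase list SCN1 alone was measured by name. CHX15 (AT2G13620), a cation and proton exchanger, gave 1210, 1200 and 1910 in late stages and 13.2, 23, 33 and 57 in early stages (5.53 ± 0.37, at least 46.1-fold, adjusted p = 2.1e-06). Its relative chx28 (AT3G52080) was at 198, 265 and 355 with every early array under the floor. VHA-A3 (AT4G39080), a subunit of the vacuolar proton pump, was higher by 1.70 ± 0.32. CHX19 (AT3G17630) differed between the late stages themselves, at 3050 and 3250 in TCP and 686 in MPG, against 310 and 352 in UNM and 1070 and 1380 in BCP, and did not pass (adjusted p = 0.061), but was called higher without MPG replicate 1 or without BCP replicate 2. Of 6 tested ion transporters 3 were higher, none was lower and 3 did not pass, and leaving out TCP replicate 1 added 1 lower call. CML42 (AT4G20780), a calmodulin-like calcium sensor, gave 3160 and 2780 at TCP and 1180 at MPG against 78.6, 79, 352 and 311. CML23 (AT1G66400), of the same family, had the opposite order, at 5.24, 7.46 and 7.56 against 266, 138, 188 and 51.2. CML43 was also called higher, with overlap, and most tested members of the calcium list did not pass. Most tested sugar transporters did not pass either, while SWEET8 and TMT2 were lower and SWEET11 and SWEET4 higher. SCN1 (AT3G07880), a regulator that holds ROP GTPases inactive, gave 3400, 3490 and 6020 against 1070, 897, 1460 and 1350, a 3.54-fold difference.

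**Figure D3:**
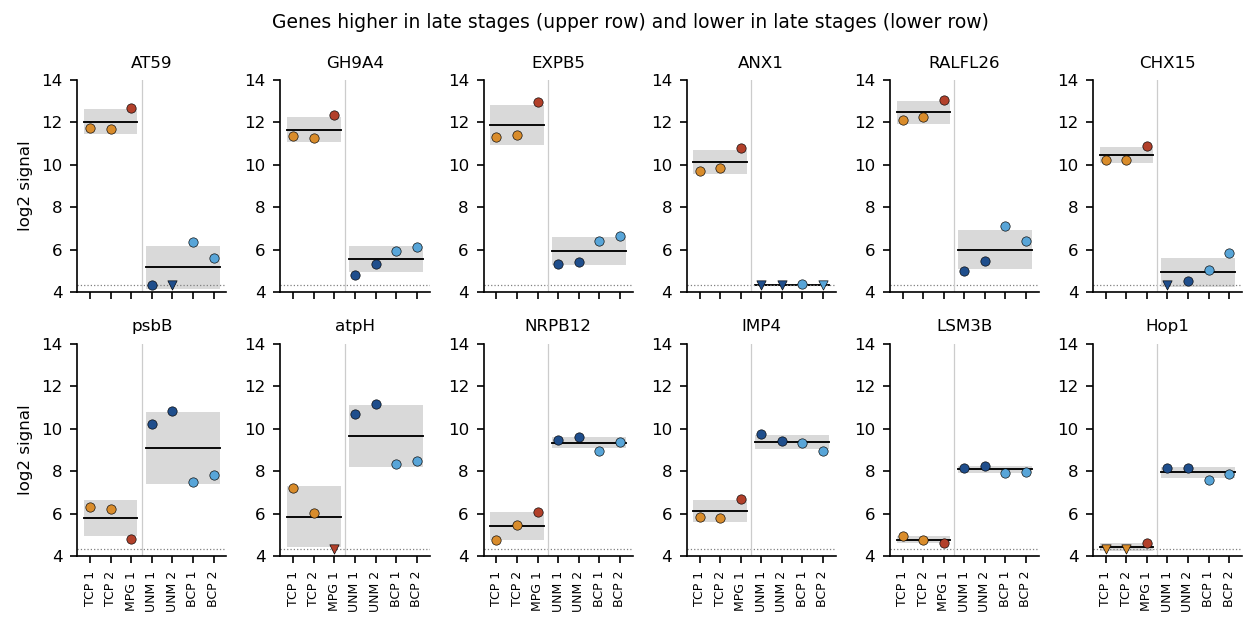
Log2 signal of 12 genes on each array, with late arrays (orange TCP, red MPG) left of early arrays (dark blue UNM, light blue BCP). Lines are side means, grey bands are 1 SD, triangles mark signals raised to the floor of 20 (dotted line). The upper genes, among them AT59 and ANX1, were at least 20-fold apart between nearest arrays, and the lower genes, among them psbB and IMP4, were higher on every early array.

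Regulators of transcription were divided between the sides. Of 214 tested genes in the study's list of transcription factors, 59 were higher, 48 were lower and 107 did not pass, with a median of 0.08. Per the methods that list was compiled from family databases and homology searches, and it also holds genes that other symbols name as enzymes, such as HMT-1 (AT3G25900), a homocysteine methyltransferase. Under quantile normalization 90 members were higher and 35 lower, and with equal medians 90 were higher and 29 lower.

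Of 27 tested genes that the study's list places in the C2H2 zinc-finger class, 9 were higher and 4 lower. C2H2 factors bind DNA through short finger domains, and whether each listed gene belongs to the class was not checked here. AT5G04390 gave 712, 671 and 720 in late stages against 6.85, 20, 22.7 and 18.3 (5.08 ± 0.19, at least 33.9-fold, adjusted p = 7.9e-07), and AT3G10470 gave 870, 750 and 814 against 24, 31.1, 32.7 and 42.9. The late signals of AT5G04390 and of AT3G10470 lay close together. In other listed genes MPG was well above TCP. AT1G70790 gave 3660, 4300 and 8470 against 58.4, 69, 179 and 103 (5.78 ± 0.42). AT3G52800 gave 625, 656 and 1840 against 4.13, 12.1, 45 and 9.16 (5.22 ± 0.43). BZIP34 (AT2G42380), a leucine zipper factor known to act in pollen, gave 258 and 261 at TCP and 169 at MPG against 1.71, 1.41, 12 and 22.4. EIN3 (AT3G20770), the central factor of the ethylene response, gave 434, 482 and 869 against 21.5, 19.1, 33.1 and 45.5, a difference of 4.32 ± 0.35.

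WRKY factors, named after their DNA-binding motif, had the early pattern in all 4 tested cases. The study's list holds 62 WRKY genes, of which 7 were measured by name, so most of the family was not read. ZAP1 (AT2G04880) gave 2.32, 1.41 and 5.04 in late stages and 124, 65.5, 88.3 and 55 in early stages. WRKY42 (AT4G04450) gave 111, 88.8 and 104 against 275, 358, 388 and 334. WRKY20 (AT4G26640) and WRKY6 (AT1G62300) were lower by -1.98 ± 0.25 and -1.78 ± 0.28. All 4 remained lower under both other scalings. Of 11 tested GARP factors 3 were lower and none was higher, and of 19 bHLH factors 5 were lower and 3 higher. Over all tested probe sets 40.9% were lower and 19.7% higher, so neither family exceeded the lower share. The direction of the bHLH counts turned with the scaling, with 3 lower and 9 higher after quantile normalization and 1 lower and 8 higher with equal medians. Without TCP replicate 1 higher bHLH genes numbered 5, and without UNM replicate 2 lower ones numbered 3. ILR3 (AT5G54680) was higher by 1.46 ± 0.30 and bHLH104 (AT4G14410) by 1.13 ± 0.22. Members that were lower were AT2G01060, of the GARP family, at 8.06, 1.41 and 10.6 against 316, 311, 212 and 217 (-3.70 ± 0.23, at least 13-fold) and AT2G34820, of the bHLH family, at 3.63, 3.93 and 6.55 against 142, 131, 117 and 94.9. HMG-box proteins, which bend DNA, were lower for 3 of 4 tested genes. Of these, 3xHMG-box2 (AT4G23800), a protein that sits on chromosomes in mitosis, gave 41, 37.8 and 53.7 against 319 and 434 at UNM and 164 and 244 at BCP.

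Genes of the plastid genome were lower in late stages with few exceptions. Of 69 plastid-encoded genes, all of them tested, 64 were lower, none was higher and 5 did not pass, and 61 were separated without overlap. Their median was -2.50, against -0.39 over all tested probe sets. Labelled RNA had been copied from an oligo(dT) primer, while most plastid transcripts lack long poly(A) tails, so these signals measure the part of the transcripts that was copied. psbB (ARTHCP049), a chlorophyll-binding core protein of photosystem II, gave 80 and 73.6 at TCP and 28.3 at MPG, against 1200 and 1800 at UNM and 178 and 225 at BCP (-3.30 ± 0.79, adjusted p = 0.0043). The UNM signals of psbB were several times those of BCP, which in turn were above TCP and MPG. The 15 photosystem II genes were all lower (median -2.93), as were the 7 of photosystem I (median -2.41) and the 6 of the ATP synthase (median -2.21). Of 10 NDH complex genes 8 were lower and of 6 cytochrome b6f genes 5, and ndhJ (ARTHCP025) gave 17.2, 22.4 and 5.04 against 334, 473, 67.1 and 67.9. The division into complexes was added after values had been seen.

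Genes for plastid gene expression were lower too, with 14 of 15 ribosomal protein genes (median -2.83). rps18 (ARTHCP044), of the small ribosomal subunit, gave 44.6 and 44.1 at TCP and 29.1 at MPG, against 438 and 463 at UNM and 306 and 396 at BCP (-3.36 ± 0.25, 10.3-fold, adjusted p = 3.1e-06). Its BCP signals stayed near those of UNM, unlike psbB. rpoC1 (ARTHCP013), a subunit of the plastid RNA polymerase, gave 229, 228 and 86.4 against 1240, 1720, 728 and 909. The subunit rpoB (ARTHCP014) gave 28.1, 36.1 and 28.6 against 226 and 198 at UNM and 45.7 and 31 at BCP and did not pass (adjusted p = 0.062), but was called lower without BCP replicate 1 or without BCP replicate 2. In some plastid genes the difference was smaller. atpB (ARTHCP029) gave 2360, 2050 and 2140 against 5230, 7110, 3640 and 5670, a 2.42-fold difference. atpE (ARTHCP028) gave 3020, 3720 and 1970 against 5210, 7810, 3730 and 6390 and lost its call without MPG replicate 1 or UNM replicate 2. Without both TCP arrays 38 of the 69 genes were called lower.

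Mitochondrial genes of the organelle genome were lower for 10 of 14 tested members, with a median of -1.26. cox2, a cytochrome oxidase subunit, gave 66.3 and 82.7 at TCP and 3.83 at MPG, against 339, 348, 160 and 171, and nad1, a subunit of complex I, gave 91.6, 111 and 58.4 against 336, 578, 249 and 322. MPG was the lowest array of both. Under quantile normalization 8 and with equal medians 6 of the 14 were lower. Nuclear genes of respiration did not share one direction, with CYTC-1 lower, SDH2-1 and CYTC-2 higher, and FRO1, SDH1-1 and SDH2-2 not passing the test. SDH2-1 (AT3G27380), a subunit of succinate dehydrogenase, gave 2380, 2390 and 1830 against 954, 907, 1020 and 1140 (adjusted p = 0.0011), a call that quantile normalization ended. Outside respiration, GAPC2 (AT1G13440), the cytosolic GAPDH of glycolysis, gave 917, 725 and 727 against 3500, 3440, 2910 and 3350. The other measured genes of the glycolysis list, ENOC and TPI, were lower too.

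Nuclear genes of RNA synthesis and processing were lower in nearly all measured members. All 10 measured subunits of RNA polymerases I, II and III were lower, with a median of -2.09. NRPB12 (AT5G41010), a small subunit shared by these enzymes, gave 27.2 and 43.8 at TCP and 67.6 at MPG, against 696 and 778 at UNM and 501 and 656 at BCP (-3.91 ± 0.32, 15-fold, adjusted p = 4.2e-06). NRPA2 (AT1G29940), a large subunit of the enzyme that makes ribosomal RNA, gave 46.9, 49.4 and 79.8 against 377, 351, 271 and 267. Their early signals were 3-fold or more above their late signals on every array. Under either other scaling 9 of the 10 were lower. IMP4 (AT1G63780), of the complex that processes ribosomal RNA, gave 57.6, 55.6 and 104 against 867, 688, 632 and 494, and RRP41 (AT3G61620), a subunit of the RNA-degrading exosome, gave 62.4, 75.3 and 63.7 against 513, 609, 419 and 504. Of 8 splicing and RNA-binding genes 7 were lower, with a median of -2.44, under all 3 scalings. Those 7 were PRP39 and all 6 measured Lsm genes, and U2AF35B did not pass. LSM3B (AT1G76860), of the Lsm ring that binds U6 RNA, gave 30.5, 27.2 and 24.3 against 284, 305, 244 and 250 (-3.31 ± 0.21).

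Translation factors were mostly lower, for 19 of 29 tested genes, with 2 higher, 8 that did not pass and a median of -1.30. AT5G44320, annotated as an eIF3d subunit, gave 156, 126 and 75.2 in late stages and 1020, 993, 949 and 846 in early stages (-3.06 ± 0.27, 8.33-fold, adjusted p = 6.9e-06). AT5G12110, an elongation factor EF1B alpha, gave 22.1, 19.8 and 26.7 against 251, 216, 153 and 179. In both genes the UNM and BCP arrays lay close together and well above TCP and MPG. The 2 higher genes among those tested were both annotated as eIF1, a factor that helps the ribosome select the start codon. Only list members matched here are counted, and the paper names PAB6 and PAB7 as further late translation-factor genes. AT1G54290 gave 1510, 1810 and 2720 in late stages against 40.1, 35.9, 82.7 and 69.5 (5.19 ± 0.35, 36.4-fold, adjusted p = 2.2e-06), and AT5G54940 gave 312, 375 and 717 against 120, 110, 165 and 133. The only measured gene of the tRNA synthetases, ALATS (AT1G50200), was lower by -2.81 ± 0.22.

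Co-chaperones, which pass client proteins to the main heat-shock chaperones, were lower for 6 of 7 tested genes, with a median of -2.80. This list was added after values had been seen, so its count and median are descriptions. Over all tested probe sets 40.9% were lower. Hop1 (AT1G12270), a linker of Hsp70 and Hsp90, gave 19.6, 8.97 and 24.6 in late stages against 283, 282, 190 and 236, and Hop2 (AT1G62740) gave 55, 47.1 and 61.8 against 499, 542, 372 and 425. Cpn60beta3 (AT5G56500), a plastid chaperonin subunit, gave 52.9, 20.6 and 69.6 against 636, 556, 606 and 706 (-3.88 ± 0.37). Its relative Cpn60beta4 (AT1G26230) did not pass, at 27.9, 44.3 and 51.1 against 25.4, 39.7, 22.1 and 49.2. RPN12a (AT1G64520), a subunit of the proteasome lid, was lower by -2.05 ± 0.21. In Hop1, Hop2, Cpn60beta3 and RPN12a every early array was more than 3-fold above every late array.

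Among the 8 measured histone genes HTB1 had the largest fall. HTB1 (AT1G07790), a histone H2B, gave 40.5 and 59.3 at TCP and 57.6 at MPG, against 890 and 1050 at UNM and 669 and 760 at BCP (-4.0 ± 0.25, 16-fold, adjusted p = 1.7e-06). HTB4 (AT5G59910) gave 26.6, 50.8 and 54.4 against 415, 350, 341 and 344. Of 8 histone genes 4 were lower, 1 was higher and 3 did not pass, beside 40.9% lower and 19.7% higher over all tested probe sets, the higher one being MGH3, and a second was higher without TCP replicate 2. Of 5 tested DNA replication genes 4 were lower and 1 did not pass, and 2 were lower without TCP replicate 1. TOPII (AT3G23890), a topoisomerase, gave 30.7, 22.3 and 22.7 against 105, 117, 66.1 and 59.2. DME (AT5G04560), a DNA demethylase, gave 25.5, 43.6 and 31.2 against 89.8, 105, 118 and 143, and SE (AT2G27100), which acts in microRNA processing, gave 26.3, 20.7 and 11.8 against 89.3, 101, 64.2 and 81.1.

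**Figure D4:**
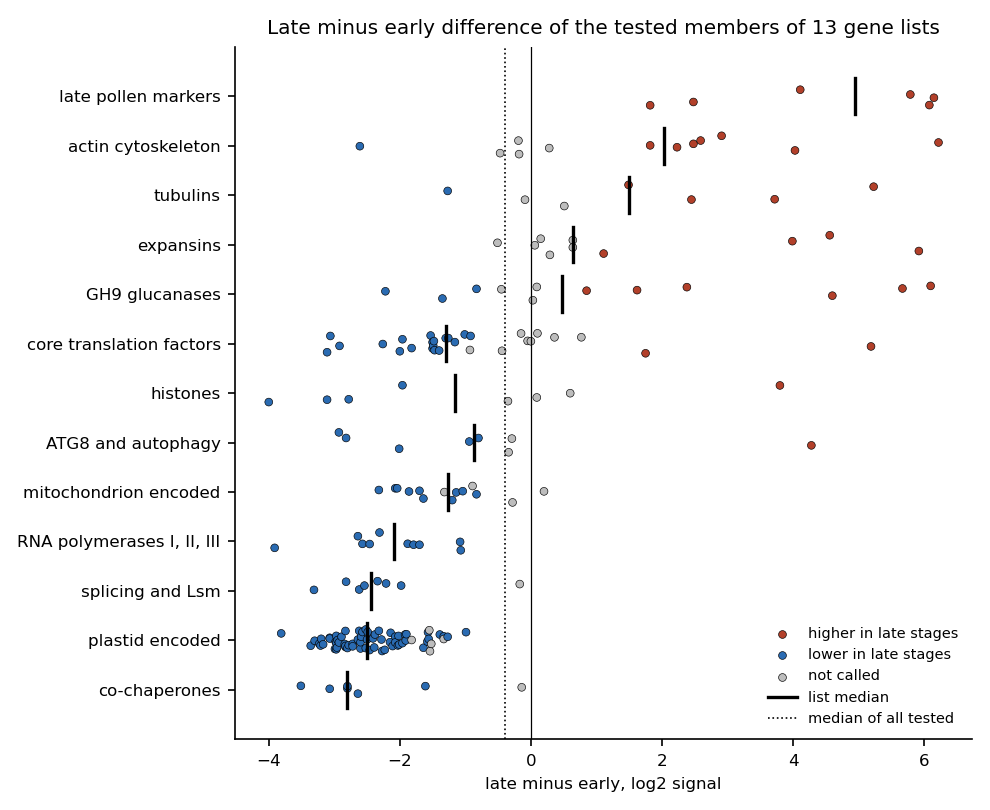
Late minus early difference on the log2 scale of each tested member of 13 gene lists (points; red higher and blue lower in late stages at an adjusted p under 0.05, grey not called), with each list's median (thick line) and the median of all tested probe sets, -0.39 (dotted line). Plastid-encoded genes and co-chaperones lie at the low end, with medians of -2.50 and -2.80, and late pollen markers and the actin cytoskeleton at the high end, with medians of 4.95 and 2.02. The co-chaperone list was added after values had been seen.

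Several gene families had close relatives at opposite ends of the comparison. These families were picked after their values had been seen, so the contrasts within them are descriptions. Among LIM proteins, PLIM2a and PLIM2b were high in late stages as given above, while WLIM2a (AT2G39900), the more widely expressed form, gave 28.9, 31.9 and 31.2 against 182, 163, 223 and 184 (-2.61 ± 0.21, adjusted p = 4e-06). TUB7 (AT2G29550) was the 1 tubulin that was lower, at 339, 318 and 134 against 692, 852, 432 and 464, and it lost its call with equal medians (adjusted p = 0.014 with the same trimmed mean). NET proteins link actin to membranes. NET2D (AT2G22560) gave 924, 820 and 452 and NET2C (AT5G10500) gave 160, 236 and 221 in late stages, with early signals of 20.8 to 88.5 for NET2D and all under the floor for NET2C. NET1A (AT3G22790) gave 12.6, 13.6 and 21.8 against 66.9, 73.2, 54.3 and 44.2.

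Small GTPases of the ARLA1 group, relatives of ARF traffic regulators, were divided in the same way. ARLA1C (AT3G49870) gave 886, 1270 and 1490 in late stages against 114, 111, 79.1 and 91.1, and ARLA1D (AT5G67560) gave 731, 474 and 641 against 71.5, 58.2, 91.8 and 116. ARLA1A (AT5G37680) had every late array under the floor against 137, 145, 105 and 100 (-2.59 ± 0.22). ATG8 proteins mark the membranes of autophagy. ATG8H (AT3G06420) gave 642, 774 and 1250 against 31.1, 23.1, 68.4 and 74.8 (4.28 ± 0.43), whereas ATG8G (AT3G60640) gave 83.7, 100 and 91.8 against 684, 890, 583 and 673 and ATG8F (AT4G16520) 97.3, 95.6 and 128 against 804, 892, 603 and 728. Of 8 tested autophagy genes 1 was higher and 5 were lower, against 4 lower after quantile normalization and 3 with equal medians.

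Cytochrome c, the electron carrier of mitochondria, was measured by a pair of genes. CYTC-1 (AT1G22840) gave 2050, 2050 and 1040 in late stages against 3510, 4550, 3110 and 3970 (-1.19 ± 0.29), and CYTC-2 (AT4G10040) gave 3120, 3480 and 1610 against 1340, 1390, 1470 and 1240 (0.94 ± 0.28, adjusted p = 0.016). The CYTC-2 call was lost without either TCP array and after quantile normalization, and the CYTC-1 call with equal medians. Endoglucanases were divided as well, with GH9B7 (AT1G75680) at 44, 47.6 and 34.7 against 195, 200, 187 and 199. Serine carboxypeptidase-like proteins, secreted enzymes, held scpl38 (AT2G05850), at 940, 1350 and 5830 with every early array under the floor, and scpl29 (AT4G30810), at 204, 232 and 163 against 769, 830, 895 and 1000. In tetraspanins, a family of membrane proteins, TET13 (AT2G03840) gave 101, 110 and 517 against 14.8, 22.8, 18 and 21.1, and TET8 (AT2G23810) gave 90.9, 88.6 and 96.7 against 308, 320, 255 and 353. UBC28 (AT1G64230) and UBC30 (AT5G56150), ubiquitin-conjugating enzymes, differed by 2.17 ± 0.24 and -1.72 ± 0.24. The median was -0.50 over 10 tested tetraspanins, 3 of them higher and 3 lower, and -0.05 over 17 serine carboxypeptidase-like genes, 2 of them higher and 5 lower, beside -0.39 over all tested probe sets.

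**Figure D5:**
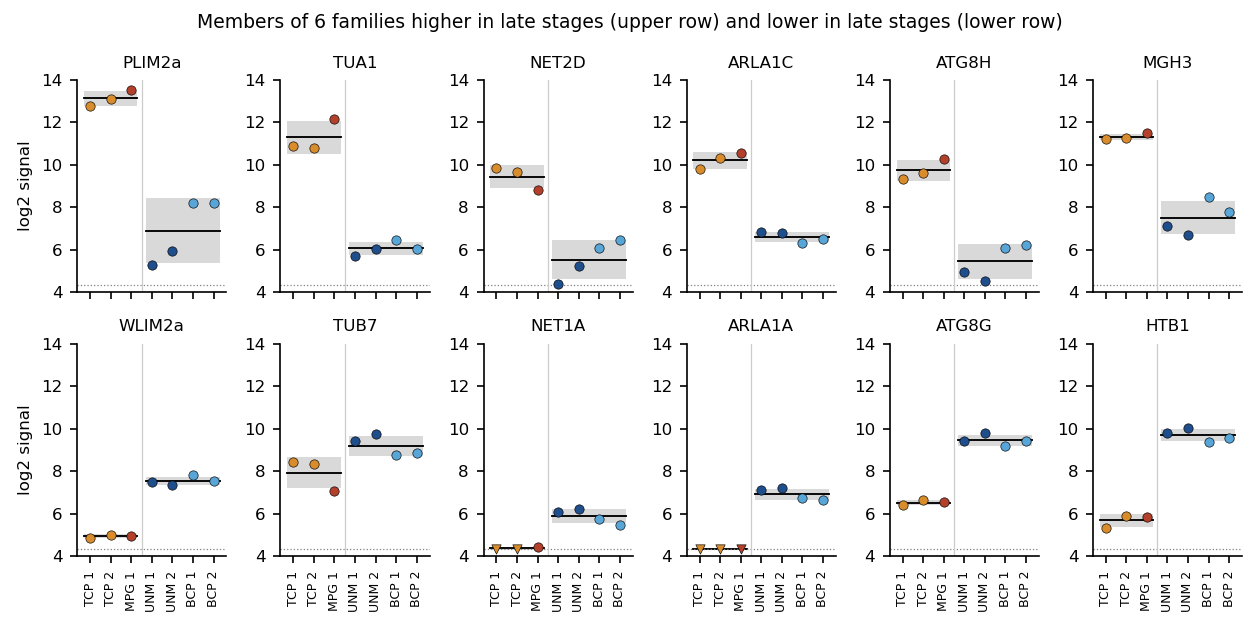
Log2 signal on each array of 1 late-side gene (upper) and 1 early-side gene (lower) of 6 families: LIM proteins, tubulins, NET proteins, ARLA1 GTPases, ATG8 proteins and histones. Late arrays are left of early arrays, lines are side means, grey bands are 1 SD and triangles mark signals raised to the floor of 20. Each upper gene was at least 5-fold apart between nearest arrays in favour of late stages, and each lower gene had the opposite order, TUB7 by the least, 1.28-fold.

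The widest gaps between the nearest arrays were found in genes several of which are known here by locus alone. AT4G33390 gave 1850, 1800 and 2040 in late stages against 1.91, 13.7, 27.1 and 29 (at least 80.1-fold, nearest arrays 62.1-fold apart, adjusted p = 7.9e-07). AT3G54240 gave 1120, 1180 and 2150 with every early array under the floor. PUB15 (AT5G42340), a U-box ubiquitin ligase, gave 1580, 1720 and 2480 against 10.1, 27.3, 36.4 and 33.1. AT3G17060 had the largest difference of these genes, 7.06 ± 0.43, with 2150 and 2110 at TCP, 6740 at MPG and 2.72, 2.22, 38.1 and 18.4 in early stages. On the early side AT1G15250 led, at 3.83, 5.04 and 7.76 in late stages against 643, 840, 445 and 569 (at least 30.4-fold, adjusted p = 1.1e-06). AT4G00390 also had every late array under the floor, against 535, 626, 353 and 452, and AT3G12390 gave 48.6, 32.3 and 59 against 1270, 1260, 1050 and 1020. In these 3 early-side genes TCP and MPG were alike low.

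The stages within each side were set side by side as well, with MPG as a single array. Of 2809 tested probe sets with late above early signals, MPG was above both TCP arrays in 1731 and below both in 682, and the median difference of MPG from TCP was 0.34. BCP was above both UNM arrays in 1097 and below both in 226. PLIM2a is an example, with TCP at 7040 and 8760, BCP at 293 and 294 and UNM at 39.4 and 61.2. Among 5906 tested probe sets with early above late signals, UNM was above both BCP arrays in 2165 and below both in 583, and MPG was above both TCP arrays in 1932 and below both in 1964. SWEET8 (AT5G40260), a sugar transporter of microspores, gave 871 and 820 at TCP and 1890 at MPG, against 4490 and 6970 at UNM and 3690 and 6090 at BCP. Its MPG signal was thus above both TCP signals while remaining below all early ones.

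Separation and the test did not select the same probe sets throughout. Of the tested probe sets that were separated, 194 higher and 267 lower in late stages did not pass the test, and 210 higher and 232 lower ones passed it while overlapping. AT3G21970 passed with overlap, at 2870 and 3230 in TCP and 411 in MPG, against 41.6 and 39.8 in UNM and 456 and 329 in BCP (3.64 ± 1, adjusted p = 0.0094). AT3G53080 had the same shape, at 1360, 1270 and 179 against 31.1, 37.9, 189 and 168. In both genes TCP was far above the other stages and MPG was at the level of BCP. Of 267 overlapping probe sets with a difference of at least 1 on the log2 scale, 144 would be separated without MPG replicate 1, against 10 to 61 without any other array. At the edge of separation, AT2G24420 was just inside, with its lowest late and highest early signals both at 182, and AT5G28110 was just outside, at 58.2, 16.8 and 93.1 with every early array under the floor.

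The 2 sets of plants were also read apart. The late minus early difference from replicate 1 arrays and from replicate 2 arrays, which have no array in common, had the same sign for 8691 of the 8696 called probe sets (99.9%) and for 3641 of the 5668 others (64.2%). The late arrays were TCP and MPG in replicate 1 and TCP alone in replicate 2, so both shares also hold differences between those stages. Both sets entered the test that chose the called probe sets, so the first share was nearly fixed by that choice and is no further test.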

How the data were processed

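RNA of Arabidopsis spores had been hybridized to 7 ATH1 arrays, 2 each of TCP, UNM and BCP and 1 of MPG. For every probe set the authors deposited a linear intensity on each array, already at an equal trimmed mean. Per the methods the study's own datasets were normalized in dChip. Which software made the deposited values was not given in the sources used here, and detection calls do not accompany them. After removal of 64 control probe sets, each array was brought to a 2% trimmed mean of 100 over the remaining 22746, by factors of 1.0057 to 1.0084.

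A floor of 20 was set before log2 values were taken. Late and early arrays were compared with limma 3.58.1 in R 4.3.3 over the 14364 probe sets that reached 40 on any array. The fit had 5 residual degrees of freedom and a prior worth 4.91 more, and p-values were adjusted by Benjamini-Hochberg with a threshold of 0.05. On simulated data of the same size, without stage differences within a side, the fit called 79 of 100 changes of 1 and 99 of 100 of 2 on the log2 scale, and 8 of 14164 unchanged probe sets. The simulated noise was drawn separately for each array, from residuals around stage means with no correction for the means removed. This understates the spread within stages, so these counts are likely too favourable. The spread in this fit also holds differences between stages of one side. Python 3.11.15 was used for counts. A fold is the difference of log2 means turned to the linear scale, and errors are standard errors of the fit unless named otherwise. The number of arrays limits the precision, and the 3 and 4 arrays of the sides come from separately grown plants for replicates 1 and 2.

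The replicate numbers mark independently grown plants per the methods. Deviations of same-numbered arrays from their stage means correlated at 0.44 (UNM and BCP), 0.22 (UNM and TCP) and 0.28 (BCP and TCP). Replicate 2 also had the higher 3' to 5' ratios at these stages, so shared plants and shared RNA quality cannot be told apart here. A fit with the replicate numbers as a block was an alternative. Other alternatives were quantile normalization, equal medians, values as deposited, other floors and minimums, a 4-stage fit, a trended robust prior, and leaving out each array or both arrays of a stage.

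Genes were named where the array's annotation table lists 1 gene for a probe set (13513 probe sets), with symbols of the TAIR10.1 gene table. A further 503 probe sets list several genes and 8730 are unnamed here. Of 13355 named genes, read by their brightest probe set, 8161 were tested. Lists were matched by symbol or locus, and only matched members are counted. All members and lists were chosen with earlier results of these data known. The lists of plastid complexes, GH9, Lsm, NET, autophagy, co-chaperone, ARF-like, tetraspanin and serine carboxypeptidase-like genes were added after values had been seen. Genes in the text follow a rule: the widest gaps between sides, the largest differences and the largest opposite calls of each list or factor family, called genes that overlap, genes at the edge of separation and the brightest genes. SCL21, a SCARECROW-like gene whose symbol resembles those of splicing factors, was left out of the splicing list. No sequences or promoters were used here.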

Additional observations from a re-analysis of the deposited data

Results flagged for a closer look

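Among the 4 early arrays, 1 array stood apart from the other 3 in 8 of the 120 genes named in the text, by Dixon's test on floored log2 signals. Chance alone flags a small share of such groups, and the late side, with 3 arrays, was not tested. In 6 of these genes 3 early arrays were at or under the floor of 20 and 1 BCP array was above it, so the floor itself set the result of Dixon's test and nothing is read from it. ANX1 read 20.9 and ANX2 24.4 on BCP replicate 1, AT3G17060 read 38.1 and AT3G52800 read 45 on the same array, and BZIP34 and GH9B11 read 22.4 and 20.3 on BCP replicate 2. The same holds for AT5G04390, at 22.7 on BCP replicate 1 with the other early arrays at or near the floor. HTB4 was highest on UNM replicate 1, at 415. All these signals lay on the early side of the gap between the stages.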

How the results depend on the processing

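Of 74 counts over all probe sets under the alternatives, 72 stayed within 1.5 times the main count. With equal medians 4485 probe sets were higher, against 2825, and 4417 had late above early signals without overlap, against 2809 of the tested ones. Higher transcription factors numbered 90 after quantile normalization and 90 with equal medians, against 59, and lower ones 29 with equal medians, against 48. Without both TCP arrays 38 plastid-encoded genes were lower, against 64. These alternatives differ from the main one in scaling, or in MPG alone standing for late stages, and the cause was not tested further. When 1 array at a time was left out, 2482 to 2902 probe sets were higher and 5435 to 5691 lower, and 2861 to 3431 had late above early and 6031 to 6317 early above late signals without overlap. With fewer arrays the rule for separation is easier to meet, so a rise of the counts without overlap was nearly fixed. Lower plastid genes then numbered 55 to 69, lower translation factors 19 to 20, lower polymerase subunits 10 to 10, lower splicing genes 7 to 7, and transcription factors 51 to 60 higher and 43 to 51 lower. Where 1 TCP array was left out, the 2 remaining late arrays were of different stages. With the replicate number as a block 2867 were higher and 5785 lower, with 62 plastid genes lower, and none of these counts moved by over 1.5 times. For the 120 named genes, 2295 of 2391 values kept direction and call, 87 lost the call, 9 gained it and 0 reversed. Of 1920 counts of list calls 198 moved by over 1.5 times. Precision is limited by the number of arrays, and signals under the floor of 20 carry no order.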

Other observations

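Protein turnover and membrane traffic held genes at both ends with no common direction. PRA1.B4 (AT2G38360), of a family of prenylated Rab acceptors, gave 2350 and 2440 at TCP and 3030 at MPG, against 195 and 151 at UNM and 157 and 103 at BCP (limma, 4.13 ± 0.26, adjusted p = 1.7e-06), while PRA1.B1 (AT3G56110) gave 237, 239 and 113 in late stages against 496, 425, 441 and 373, a call that was lost with equal medians. Of 10 tested PRA1 genes 3 were higher and 3 lower, against 4 and 2 after quantile normalization and 5 and 0 with equal medians. VPS2.2 (AT5G44560), a subunit of the ESCRT machinery that sorts membrane proteins for degradation, had every late array under the floor against 128, 91.7, 75.5 and 95.6 in early stages. UBP18 (AT4G31670), a ubiquitin-specific protease, gave 5.64, 31.7 and 4.23 against 93.1, 107, 97.8 and 113, and UBP25 (AT3G14400) gave 131, 167 and 237 against 98.9, 54.4, 75.7 and 90.5. The late and early arrays of UBP18 and UBP25 thus had opposite orders.

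Genes of dehydration and cold were measured in small number. Of 5 tested late-embryogenesis and oil-body genes 2 were higher, none was lower and 3 did not pass, with a median of 0.65, and 1 was lower without UNM replicate 1. With equal medians 4 were higher. LEA4-5 (AT5G06760), a protein of desiccating seeds, gave 561 and 354 at TCP and 60.7 at MPG, with every early array under the floor. COR27 (AT5G42900), a cold-regulated gene, gave 235, 227 and 295 in late stages against 21.7, 22.3, 30.7 and 32.2 (3.25 ± 0.24, adjusted p = 2.9e-06). YUC2 (AT4G13260) and YUC6 (AT5G25620), enzymes of auxin synthesis, were lower by -1.63 ± 0.3 and -1.57 ± 0.31. Within the late side LEA4-5 gave a lower signal at MPG than at TCP, whereas the COR27 signals of both stages lay close together.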
